A study of Mus musculus with 3 samples.

Results

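Mouse embryonic stem cells (ESCs) with reduced expression of the Usp17l family were studied. Followed in them was a set of 7 genes taken as shared by the naive and the primed state of pluripotent cells: Pou5f1, Sox2, Sall4, Utf1, Lin28a, Trim71 and L1td1. They were picked by symbol, with earlier results of these data known. All 7 were found among the 32545 rows of the deposited expression table. Each of the 7 also passed the filter used below, a mean of at least 0.5 TPM (transcript abundance scaled by transcript length and to a fixed total of 1000000) over the samples, as did 19950 rows in all. The cells were E3 mouse ESCs at passage 7, derived from C57BL/6 × 129S6 blastocysts and grown on mouse embryonic fibroblast (MEF) feeders in medium with serum and LIF. The control was E3 transfected with the empty vector, and both knockdown lines, KD4 and KD9, carried an shRNA plasmid against a stretch shared by the Usp17l genes, which encode deubiquitinases. The study designed a pair of such shRNAs, and which of them each line carries is not given in the labels. KD4 and KD9 are each a single drug-selected clone, so a difference between a clone and the control includes what sets one clone apart from another. There was 1 labelled sample of each kind. KD4 and KD9 each have 2 columns of values, whose mean was taken as the value of the line, and the control has 1 matched column.

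Pluripotent cells can form every tissue of the embryo, and they hold that state with a small set of transcription factors and RNA-binding proteins. OCT4 (encoded by Pou5f1) and SOX2 bind DNA together at the enhancers of many pluripotency genes, and SALL4 and UTF1 are nuclear proteins that act beside them. LIN28A, TRIM71 and L1TD1 bind RNA. LIN28A blocks the maturation of let-7, a microRNA family that accumulates as cells differentiate and represses many mRNAs of early cells, among them those of Lin28a and Trim71 themselves.

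The Usp17l family was lower in both knockdown lines, but its levels were low in all samples. Of its 5 members, 2 passed the filter. Reads with a single placement were counted, and these genes share stretches of identical sequence. Usp17le was at 1.82 TPM in the control, at 0.151 and 0.0637 TPM in the KD4 columns and at 0.331 and 0.374 TPM in the KD9 columns, and all 5 family members were below the control in both lines. The cells carried the marker genes of naive ESCs, since the 10 markers of that state summed to 3476 TPM in the control and to between 4037 and 4922 TPM in the knockdown columns, with none at 0. Fibroblast genes were present as well. The 28 fibroblast markers summed to 9777 TPM in the control, to 3584 and 3662 TPM in KD4 and to 7449 and 7324 TPM in KD9, again with none at 0. Markers of the feeder cells were thus lowest in KD4, the line in which most of the 7 genes were highest, and their part in the results below was not tested. In such bulk samples, fewer cells of a type and less RNA per cell cannot be told apart. TPM keeps no depth, so the number of reads behind each value is unknown.

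Of the 7 genes, 3 have sites for let-7 in their 3′ untranslated regions (3′UTRs). The sequences of the microRNAs are shown because their seed, bases 2 to 8, sets which mRNAs they pair with, and in RefSeq (GRCm38.p6, mm10) 10 of 11 mature let-7 family names shared 1 seed. It is in capitals in these members of the family:
mmu-let-7a-5p: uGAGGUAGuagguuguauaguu
mmu-let-7g-5p: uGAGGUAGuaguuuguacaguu
mmu-let-7i-5p: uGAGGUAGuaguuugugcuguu
mmu-miR-98-5p: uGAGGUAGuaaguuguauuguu
The remaining name, let-7j, differed from the others at the last base of the seed:
mmu-let-7j: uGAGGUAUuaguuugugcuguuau

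LIN28 proteins bind the loop of the let-7 precursor, where the letters GGAG are part of their binding site. GGAG was found on the given strand in the loop of 8 of the 11 let-7 hairpins whose mature arms are both listed. Mirlet7g is shown as one that has it, in capitals, and Mirlet7b as one that does not:
Mirlet7g: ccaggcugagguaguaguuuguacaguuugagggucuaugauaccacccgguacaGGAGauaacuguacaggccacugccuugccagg
Mirlet7b: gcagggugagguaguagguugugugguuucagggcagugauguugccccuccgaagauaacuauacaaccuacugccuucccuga

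The letters CTACCTC, the match to the seed, were searched on the sense strand of the 3′UTRs of the GENCODE M21 annotation (mm10), and 9.02% of 21010 genes with a 3′UTR held them. Lin28a held 2 sites, Trim71 held 4 and Sall4 held 1, while none was found in Pou5f1, Sox2, Utf1 or L1td1. Among genes with a 3′UTR of like length, 14.8% held a site for Lin28a, 29.9% for Trim71 and 11.4% for Sall4. The 3′UTR of Lin28a is 2775 bases long and that of Trim71 5512, against 221 in Pou5f1, 122 in Utf1 and 364 in L1td1. The sites of Lin28a lie at chr4:134005185-134005211 and chr4:134004547-134004573 on the minus strand, that of Sall4 at chr2:168748936-168748962 on the minus strand, and the first pair in Trim71 at chr9:114512468-114512494 and chr9:114512372-114512398 on the minus strand. They are printed with the match in capitals:
Lin28a, first site: gcacagcctgttgaaCTACCTCatttt
Lin28a, second site: gagatcgccacaaacCTACCTCactgt
Sall4, only site: agggctttaatttatCTACCTCaatta
Trim71, first site: aacattgcctaagtcCTACCTCagctt
Trim71, second site: agtgataatttctatCTACCTCaactc
In all 5 an A follows the match, which is typical of microRNA sites. A match is a description of the letters and does not show that let-7 acted on the mRNA in these cells.

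The genes encoding the DNA-binding proteins come first. Pou5f1 (chr17:35506018-35510772, plus strand), which encodes OCT4, was the most abundant of the 7 in every column. Its level was 698 TPM in the control, 1025 and 1060 TPM in the KD4 columns, and 686 and 693 TPM in the KD9 columns. KD4 was thus 1.49-fold above the control, while KD9 stood at 0.988 of it. Sox2 (chr3:34650405-34652461, plus strand), whose product is the partner of OCT4 on DNA, was at 296 TPM in the control, 446 and 525 TPM in KD4, and 330 and 337 TPM in KD9. All 4 knockdown columns were above the control, by 1.64-fold in KD4 and 1.13-fold in KD9 on average. Sall4 (chr2:168748332-168767943, minus strand), a zinc-finger factor that keeps ESCs from differentiating, gave 89.2 TPM in the control, 146 and 150 TPM in KD4, and 90.6 and 92.6 TPM in KD9. Here too every knockdown column lay above the control, but in KD9 the margin was small, at 1.03-fold.

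Utf1 (chr7:139943789-139945112, plus strand), a chromatin-bound protein and a known target of OCT4 and SOX2, showed the widest gap between the lines. It was at 273 TPM in the control, 545 and 466 TPM in KD4, and 249.8 and 231 TPM in KD9. KD4 was 1.85-fold above the control and 2.10-fold above KD9, and both KD9 columns were below the control.

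**Figure D1:**
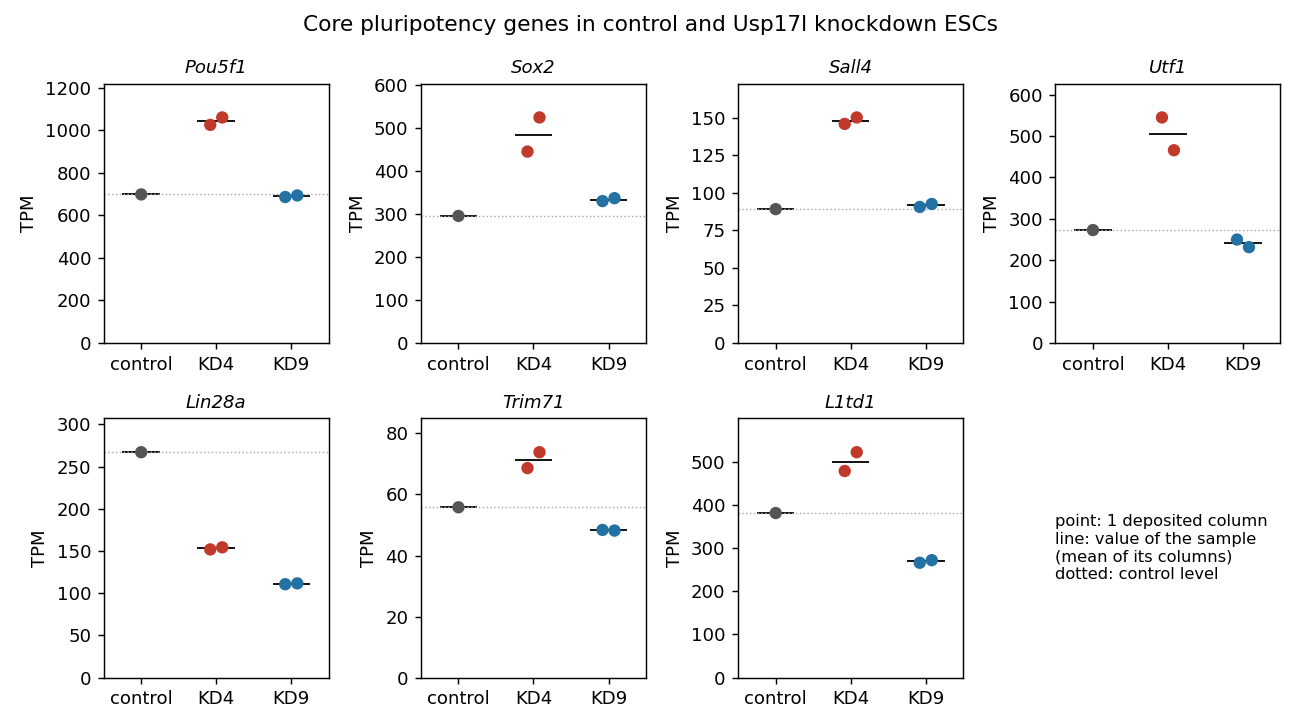
Level of each of the 7 genes in TPM (vertical axes, each from 0) in the control, KD4 and KD9. Points are deposited columns, short lines are sample values and dotted lines mark the control. KD4 points lie above the control for 6 genes, and Lin28a is below it in both lines (267 TPM in the control against 153 TPM for KD4 and 111 TPM for KD9).

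Of the genes for RNA-binding proteins, Lin28a (chr4:134003330-134018841, minus strand) differed from the rest. Its level was 267 TPM in the control, 152 and 154 TPM in the KD4 columns, and 110.6 and 111.6 TPM in the KD9 columns. It was the only 1 of the 7 below the control in every knockdown column, where the control was 1.74-fold above KD4 and 2.40-fold above KD9. Trim71 (chr9:114507133-114564369, minus strand), a ubiquitin ligase and RNA-binding repressor of mRNAs, was the least abundant of the 7. The control held 55.8 TPM of it, the KD4 columns 68.6 and 73.8 TPM, and the KD9 columns 48.4 and 48.2 TPM. L1td1 (chr4:98726734-98738480, plus strand), which derives from the protein of a LINE-1 retrotransposon and works with LIN28A in human cells, was at 381 TPM in the control, 478 and 522 TPM in KD4, and 266 and 272 TPM in KD9. For both genes the KD4 columns were above the control and the KD9 columns below it.

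By TPM, which is scaled by length and so can be set side by side between genes, the order of the levels was the same at its ends in every column. Pou5f1 was first, and Lin28a, Sall4 and Trim71 took the last places in that order. In KD4, Sall4 was close below Lin28a, at 148 against 153 TPM, with SDs between columns of 3.03 and 1.75 TPM. The control has 1 column and so no spread, and Sox2, Utf1 and Lin28a lay close together in it. L1td1, Sox2 and Utf1 filled the places between and changed order: L1td1 was above Sox2 in the control, while Sox2 was above L1td1 in KD9. In KD4 the 3 genes could not be put in order, since the 2 columns ranked Utf1 first and last of them. Among all genes, Lin28a held rank 516 by TPM in the control against 965 for KD4 and 1324 for KD9, while Pou5f1 was at rank 172, 97 and 181.

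Whether knockdown altered these genes across both lines was tested with limma on log2(TPM + 0.1), with KD4 and KD9 as 2 samples against the lone control. No gene was called at an adjusted p under 0.05 (0.0% of 19950 in either direction), and none of the 7. At an unadjusted p under 0.05, 2.54% of all genes were higher and 2.68% lower, and Lin28a was the only 1 of the 7 among them. The estimate for Lin28a was the farthest from 0 among the 7 (log2 fold change -1.03, SE 0.30, limma with Benjamini-Hochberg adjusted p = 0.859). The other estimates were 0.28 (SE 0.37) for Pou5f1, 0.44 (SE 0.34) for Sox2, 0.39 (SE 0.38) for Sall4, 0.35 (SE 0.52) for Utf1, 0.07 (SE 0.33) for Trim71 and -0.06 (SE 0.46) for L1td1. These SEs combine the difference between the lines, with 1 residual degree of freedom, and a spread that limma borrows from all genes. The unadjusted p-values rest on that borrowed spread too. The single control is taken to have the same spread as the lines.

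With each line counted as 1 sample, its difference from the control has no replicate check and is given as a size. In KD4, 6 of the 7 genes were above the control, where 47.8% of all genes were. The median log2 difference of the 7 from the control was 0.58, against -0.02 over all genes. None was over 2-fold higher (5.18% of all genes) or over 2-fold lower (9.5%). With a bound of 1.5-fold, chosen after the data were seen, Sox2, Sall4 and Utf1 were higher (11.0% of all genes) and Lin28a lower (18.0%). Pou5f1, at 1.49-fold, was just under that bound.

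In KD9, 2 of the 7 were above the control, Sox2 and Sall4, where 42.9% of all genes were. The median log2 difference was -0.18, against -0.06 over all genes. Lin28a was over 2-fold lower, as were 5.45% of all genes, and none was over 2-fold higher (4.21%). With the bound of 1.5-fold, Lin28a was the only 1 of the 7 lower (11.6%), and none was higher (8.89%). It was also the only 1 past that bound in both lines, where 7.15% of all genes were lower and 4.97% higher. Over both lines, 2 genes had all 4 columns above the control (20.5% of all genes), Lin28a had all 4 below (30.1%), and the other 4, Pou5f1, Utf1, Trim71 and L1td1, had the KD4 columns above and the KD9 columns below (11.8%). For Pou5f1 in KD9 that side depended on the scaling, since its log2 difference was -0.02 as deposited and 0.05 after rescaling by median ratios.

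**Figure D2:**
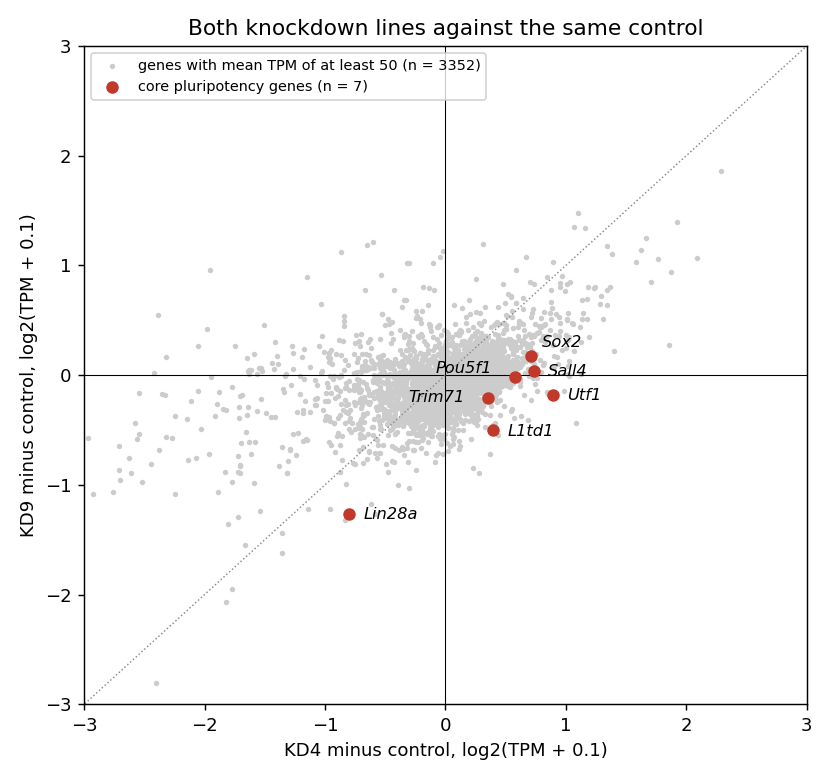
Difference from the control in log2(TPM + 0.1) for KD4 (horizontal) and KD9 (vertical), with 3352 genes of a mean TPM of at least 50 in grey, of which 18 lie outside the axes, and the 7 genes in red. Both axes share the control, and the dotted line marks equal differences. All 7 lie below that line, and Lin28a is the only 1 of them to the left of 0.

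A test against the spread between the 2 columns of a line, added after the data were seen, treats each column as its own library. The study's figure legends describe such pairs as biological replicates, while the labels name 1 sample for each line and do not say whether its columns are separate cultures. The p-values of this test measure the spread between columns of a clone, again with spread borrowed from all genes. That spread may be technical, and the control has 1 column. In KD4 against the control it called 6 of the 7 higher (8.37% of all genes) and Lin28a lower (12.2%), with Benjamini-Hochberg adjusted p from limma of 0.0203 for Pou5f1, 0.0359 for Sox2, 0.00747 for Sall4, 0.0260 for Utf1, 0.00612 for Lin28a, 0.0401 for Trim71 and 0.0483 for L1td1. In KD9 against the control it called only Lin28a, as lower (3.11% of all genes), with an adjusted p of 0.0291, and none higher (1.99%). L1td1, with a log2 difference of -0.50 (SE 0.08) in KD9, had an adjusted p of 0.0585. Pou5f1, with -0.02 (SE 0.07), had an adjusted p of 0.898. For the mean of both lines against the control, this fit called Sall4 higher (3.91% of all genes, adjusted p = 0.0275) and Lin28a lower (6.94%, adjusted p = 0.00898).

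Between the lines, both KD4 columns were above both KD9 columns for all 7 genes, as for 38.5% of all genes. In the same limma fit on columns all 7 were higher in KD4 than in KD9, where 14.9% of all genes were and 13.4% were lower. Pou5f1, Sall4, Utf1 and L1td1 were over 1.5-fold higher in KD4 than in KD9 (9.45% of all genes), and none of the 7 was over 1.5-fold lower (14.7%). The log2 differences ran from 0.46 (SE 0.04, adjusted p = 0.00820) for Lin28a to 1.07 (SE 0.10, adjusted p = 0.0106) for Utf1, with 0.60 (SE 0.06, adjusted p = 0.0108) for Pou5f1. Lin28a, though below the control in both lines, was therefore 1.38-fold higher in KD4 than in KD9. The 7 genes together made up 0.206% of all TPM in the control, 0.286% and 0.295% in the KD4 columns and 0.178% and 0.179% in the KD9 columns.

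Each gene was also set relative to Pou5f1 within its own column. The levels of these genes in the feeder cells were not measured, so the part of the feeder share in this ratio was not tested. Lin28a stood at 0.382 of Pou5f1 in the control, at 0.148 and 0.146 in the KD4 columns and at 0.161 in both KD9 columns. The control was 2.60-fold above KD4 and 2.37-fold above KD9 on this scale, so the lines lay closer together than by TPM. Sox2 was at 0.424 of Pou5f1 in the control, against 0.466 for KD4 and 0.484 for KD9, and Sall4 at 0.128, 0.142 and 0.133. Trim71 was at 0.0799, 0.0683 and 0.0700, and L1td1 at 0.546, 0.480 and 0.390. Sox2 and Sall4 were thus slightly higher relative to Pou5f1 in both lines, and Trim71 and L1td1 lower in both. Utf1 was at 0.391 of Pou5f1 in the control, against 0.485 for KD4 and 0.349 for KD9, above the control in the first line and below it in the second.

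**Figure D3:**
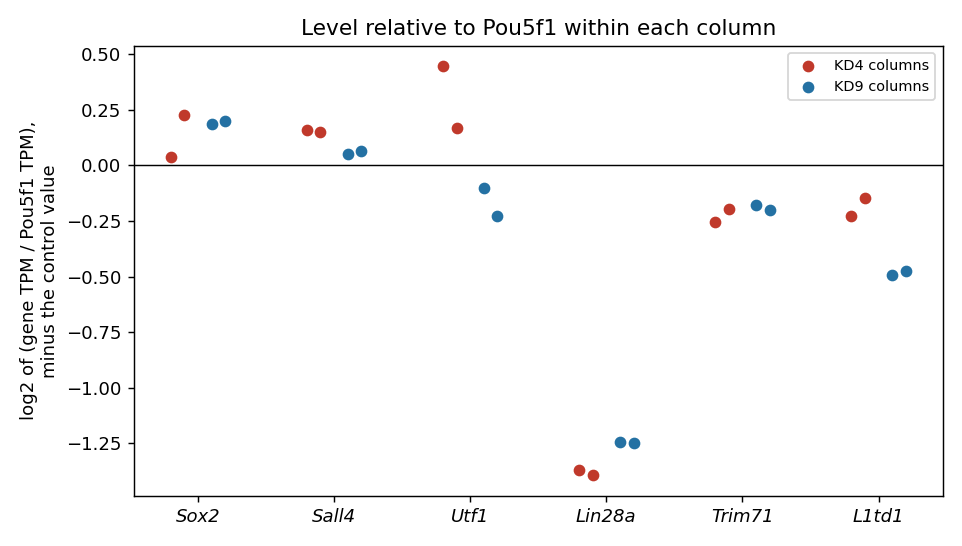
TPM of each of the other 6 genes divided by that of Pou5f1 in the same column, as log2 and minus the control's value (vertical axis), with 1 point for each knockdown column. Lin28a lies more than 1 below 0 in all 4 columns, and the other genes lie within 0.50 of 0.

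Several of the 7 genes share their locus with another annotated gene, and the counting as stated did not use strand. Lin28a overlaps Gm13061 on the other strand, a row with 109 TPM in the control, 72.7 TPM in KD4 and 45.4 TPM in KD9. This row was also lower in both lines, and reads of the pair cannot be told apart where they overlap. Pou5f1 overlaps Gm19553 on the other strand, listed at 1899, 2516 and 1928 TPM in the same order, Sall4 overlaps Gm14261 (14.8, 35.97 and 17.4 TPM) and Trim71 overlaps C130032M10Rik (15.2, 22.7 and 14.1 TPM). Each partner row was highest in KD4, as its neighbour was, except that of Lin28a. Sox2 lies within Sox2ot on the same strand, at 0.698, 1.66 and 0.640 TPM, and Utf1 and L1td1 overlap no other annotated gene.

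Relatives of the DNA-binding members were mostly lower in the knockdown lines. Of the 9 relatives of Sox2 tested, 4 were over 2-fold lower in both lines (3.2% of all genes) and Sox15 was over 2-fold higher in both (2.47%), with medians of -1.32 in KD4 and -1.15 in KD9. Sox15, which can bind DNA with OCT4 in ESCs, was at 6.91 TPM in the control, 33.4 and 32.7 TPM in KD4 and 18.3 and 21.9 TPM in KD9. Sox3, a close relative of Sox2 and a gene of neural progenitors, was at 8.59, 2.89 and 1.73 TPM in the control, KD4 and KD9. Of 6 POU genes tested, Pou3f1 was the 1 over 2-fold lower in both lines (3.2% of all genes). It was at 17.4 TPM in the control against 5.47 and 5.30 TPM (medians of the 6 -0.26 and -0.41). Among the 3 relatives of Sall4, Sall1 followed it, at 75.6, 133 and 80.6 TPM, while Sall2 (8.74, 4.03 and 6.94 TPM) and Sall3 (8.02, 5.11 and 4.67 TPM) were lower in both lines (median of the 3 -0.64 in KD4 and -0.33 in KD9).

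SALL4 recruits NuRD, a complex that remodels and deacetylates chromatin. None of the 12 NuRD genes was over 2-fold from the control in either line (medians 0.10 and -0.15). Of all genes, 5.18% were over 2-fold higher and 9.5% lower in KD4, and 4.21% and 5.45% in KD9. Chd4, its remodelling subunit, was at 113, 122 and 101 TPM in the control, KD4 and KD9, and Mbd3, the subunit that ESCs need to leave pluripotency, at 159, 173 and 140 TPM.

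The 7 known targets of OCT4 and SOX2 did not all lie on the same side of the control (medians 0.65 in KD4 and 0.44 in KD9). Fgf4, a growth factor that prompts ESCs to differentiate, was at 66.1 TPM in the control, 144 TPM in KD4 and 89.4 TPM in KD9. Nanog, a core factor of naive ESCs, was at 222, 347 and 336 TPM, and Zfp42, which encodes the ESC marker REX1, at 221, 525 and 387 TPM. Spp1, the most abundant of the 7 targets, was at 1441, 1312 and 2505 TPM, below the control in KD4 and above it in KD9. Tdgf1 was at 488, 666 and 472 TPM, above the control in KD4 and below it in KD9. Lefty1, an inhibitor of Nodal signalling, was at 471 TPM in the control and lower in both lines, at 89.1 and 67.3 TPM. It was the only 1 of the 7 targets over 2-fold lower, and was so in both lines (3.2% of all genes). Fgf4 and Zfp42 were over 2-fold higher in KD4 (5.18% of all genes), and none of the 7 was in KD9 (4.21%).

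The 9 tested genes of the LIN28 and let-7 machinery all stayed within 2-fold of the control in both lines (medians -0.01 and -0.15). Most genes did so too: in KD4 5.18% of all genes were over 2-fold higher and 9.5% lower, and in KD9 4.21% and 5.45%. Lin28b, the paralog of Lin28a, singled out after its values were seen, was at 8.96 TPM in the control, 6.69 and 6.43 TPM in KD4 and 4.94 and 4.57 TPM in KD9, below the control in all 4 columns like Lin28a. Tut4, which adds uridines to let-7 precursors held by LIN28A, was at 33.0 TPM in the control, 23.0 and 21.9 TPM in KD4 and 19.8 and 20.6 TPM in KD9. Drosha and Dicer1, the nucleases that cut let-7 from its precursors, were at 74.2, 89.9 and 69.2 TPM and at 16.7, 16.6 and 13.7 TPM. Mature microRNAs are not measured by these libraries, which were made from polyadenylated RNA.

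Among 12 mRNAs known as let-7 targets, Ccnd2 was the 1 over 2-fold lower in KD4 (9.5% of all genes). None was over 2-fold higher in KD4 (5.18%), or over 2-fold from the control in KD9 (4.21% higher and 5.45% lower). The medians were -0.16 in KD4 and -0.29 in KD9. Hmga2, a chromatin protein whose 3′UTR held 4 sites, was at 127 TPM in the control, 102 and 104 TPM in KD4 and 163 and 161 TPM in KD9, so it lay on opposite sides of the control in the 2 lines. Igf2bp1, an RNA-binding protein with 4 sites as well, was at 104, 103 and 79.2 TPM in the control, KD4 and KD9. Nr6a1, which held 8 sites, the most on the list, and was singled out after its values were seen, was at 19.2, 11.1 and 10.5 TPM. Ccnd2, a cell cycle regulator with no site, was at 102, 48.0 and 87.9 TPM. Ccnd1, the most abundant of the 12 and also with no site, was at 137, 195 and 229 TPM, above the control in both lines. Mycn, with no site as well, was at 118, 179 and 118 TPM. No site means here that the letters CTACCTC were absent from the annotated 3′UTR, and other forms of match were not searched. Whether let-7 acted on these mRNAs was not tested.

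Of the mRNAs that TRIM71 is known to repress, 4 were followed. Cdkn1a, which encodes the cell cycle inhibitor p21, was at 202 TPM in the control, 105 and 104 TPM in KD4 and 236 and 237 TPM in KD9. Egr1, an immediate early transcription factor, was at 169 TPM in the control, 87.9 and 77.9 TPM in KD4 and 267 and 266 TPM in KD9. It was over 2-fold lower in KD4, where 9.5% of all genes were. Mbnl1 was at 8.17, 5.41 and 7.00 TPM in the control, KD4 and KD9, below the control in both lines. Rbl2 was at 5.49, 4.98 and 6.62 TPM. Trim71 itself was above the control in KD4 and below it in KD9. That is the reverse of Cdkn1a, Egr1 and Rbl2, but in KD9 Mbnl1 lay on the same side as Trim71. Whether TRIM71 acted on these mRNAs was not tested. The medians of the 4 were -0.77 in KD4 and 0.25 in KD9. The levels of these mRNAs in the feeder cells were not measured, and the part of the feeder share was not tested. Fibroblast markers had a median of -1.81 over 28 genes in KD4, with 22 over 2-fold lower (9.5% of all genes). In KD9 their median was -0.19, with none over 2-fold lower (5.45% of all genes) and 2 over 2-fold higher (4.21%).

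A list of 12 other genes shared by the naive and primed states was set beside the 7. In KD4, 11 of the 12 were above the control (47.8% of all genes), and in KD9 5 were (42.9%), with medians of 0.50 and -0.15. Both KD4 columns were above both KD9 columns for all 12, as for 38.5% of all genes. Mybl2, a cell cycle transcription factor, was at 287 TPM in the control, 649 TPM in KD4 and 408 TPM in KD9. Jarid2, a partner of the Polycomb complex PRC2, was at 85.3, 173 and 85.8 TPM, and Dppa4, a chromatin protein of pluripotent cells, at 114, 198 and 116 TPM. Cdh1, which encodes E-cadherin, was at 160, 154 and 110.0 TPM, and was the 1 gene of the 12 not above the control in KD4.

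Markers that tell pluripotent states apart differed from these shared genes, the naive ones chiefly in KD9 and the primed ones in both lines. The 10 naive markers had medians of 0.85 in KD4 and 0.70 in KD9, and 9 of them were above the control in KD9 (42.9% of all genes). Nr0b1, a nuclear receptor of naive cells, was at 124 TPM in the control, 456 TPM in KD4 and 238 TPM in KD9, and Klf4 was at 366, 367 and 395 TPM. Of the 8 primed markers, 5 were over 2-fold lower in both lines, where 3.2% of all genes were (medians -1.49 and -1.69). Lin28a, listed here as shared, was below the control in both lines as these 5 were (-0.80 in KD4 and -1.26 in KD9). Dnmt3b, a DNA methyltransferase and the most abundant of the 8, was at 60.2 TPM in the control, above it in KD4 (77.7 TPM) and below it in KD9 (36.7 TPM). Otx2, a factor that drives cells from the naive to the primed state, was at 1.59, 11.2 and 2.97 TPM. Early lineage markers were low throughout, with sums over 10 genes of 86.7 TPM in the control and 40.9 to 51.4 TPM in the knockdown columns. The median over the 7 of them that were tested was -0.96 in KD4 and -1.24 in KD9. The 12 housekeeping genes had medians of -0.12 and -0.14. Among them B2m was the 1 gene over 2-fold from the control (1615, 568 and 2219 TPM), lower in KD4, where 9.5% of all genes were.

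**Figure D4:**
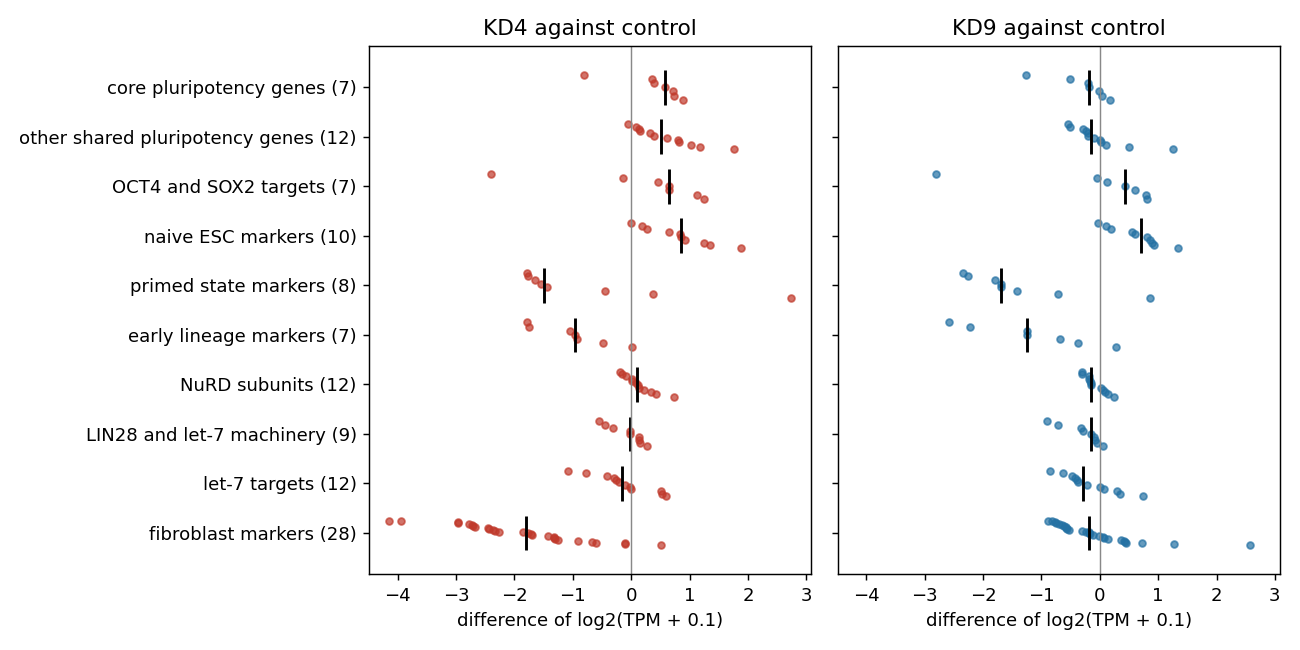
Difference from the control in log2(TPM + 0.1) for KD4 (left) and KD9 (right), with 1 point for each tested gene, the number of genes in brackets, and a black line at the median. The 7 genes and the 12 other shared genes have medians of 0.58 and 0.50 in KD4 and of -0.18 and -0.15 in KD9, while naive markers stay at 0.85 and 0.70.

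The genes whose pattern over the 4 knockdown columns was most like that of Pou5f1 were sought among 12942 other genes with a mean of at least 5 TPM, by the Euclidean distance of their log2 ratios to the control. The nearest 5 were Mycn (distance 0.0539), Six4 (0.0650), Klf9 (0.0682), Wdr90 (0.0700) and Zfp1 (0.0701). Mycn, a MYC family transcription factor of ESCs, was at 118 TPM in the control, 178 and 179 TPM in KD4 and 118 and 117 TPM in KD9. Among the 7 genes, Sall4 was the nearest to Pou5f1, with 217 of the other genes nearer, followed by Sox2 with 701 and Trim71 with 1096. Utf1 had 2059 genes nearer, L1td1 4136 and Lin28a 12210. The points share the control and 2 clones, so this likeness is a description of 4 columns.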

How the data were processed

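Libraries were made from polyadenylated RNA. The authors used Trim Galore for trimming, HISAT2 for alignment to mm10 and featureCounts for counting reads with a single placement, with no strand setting stated, and deposited TPM values. Versions and annotation are not given in the sources used here. TPM columns sum to 1000000 and keep no depth, so no count model or counting interval was used. The number of per-sample columns left out is 1: its name marks another control, no label fits it, and its values, some of which were seen, entered no result.

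Values were taken as log2(TPM + 0.1); differences of low genes are understated by the pseudocount. The fit (eBayes with a trend after lmFit, two-sided, Benjamini-Hochberg over 19950 genes) used limma 3.58.1 and R 4.3.3 and was tested on simulated data, with tables made in Python 3.11.15. The members and gene lists were chosen with earlier results of these data known. Named are all members, up to 6 genes of highest mean TPM in each list, the 5 nearest to Pou5f1, and those marked as singled out later. Of 11 listed symbols of the LIN28 and let-7 machinery, 2 are older names of genes listed under the newer one. Alternatives were other pseudocounts (1 and 0.5), filters (none and a mean TPM of 5), rescalings, single columns, columns as libraries, no trend and single lines.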

Additional observations from a re-analysis of the deposited data

Results flagged for a closer look

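In 4 of the 7 genes both KD4 columns lay above the control and both KD9 columns below it, under the same contrast, as in 11.8% of all genes. The KD4 value minus the KD9 value on the log2 scale was 0.60 for Pou5f1, 1.07 for Utf1, 0.56 for Trim71 and 0.89 for L1td1. The difference was not tested across samples, since each line is 1 sample. Against the spread between the columns of a line, limma on columns gave adjusted p of 0.0108, 0.0106, 0.0100 and 0.00741 in the same order. For Pou5f1 the KD9 columns were close to the control, at 686 and 693 against 698 TPM, and the side on which they lay depended on the scaling.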

How the results depend on the processing

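No paired analysis was possible because the labels give no replicate number shared between the control and the knockdown lines. With each column as its own library, knockdown against control still gave no call in either direction, whereas that fit made by line, added after the data were seen, called 781 genes higher and 1384 lower, among them Lin28a (-1.03, adjusted p = 0.00898) and Sall4 (0.39, adjusted p = 0.0275). The control there is 1 column, and its spread is assumed from the columns of the lines. The other alternatives kept the counts at 0. Leaving out 1 line gave values with no test: leaving out KD4 or KD9 in turn, Pou5f1 ranged from -0.018 to 0.58, Utf1 from -0.18 to 0.89, Trim71 from -0.21 to 0.35 and L1td1 from -0.50 to 0.39, so that their sign depended on the line. Rescaling by median ratios moved the KD9 median over the 7 genes from -0.18 to -0.11 and put Pou5f1 in KD9 at 0.05, the only change of sign of a single line's difference under a rescaling. Unknown depth, 1 control column and 1 sample of each line limit every difference given here.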
